A study of Mus musculus with 47 samples.

Results

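Hemoglobin genes give a way to see red blood cell RNA in a brain sample. The 5 genes described here are the adult alpha globin genes Hba-a1 and Hba-a2, the adult beta globin genes Hbb-bs and Hbb-bt, and Alas2, the erythroid form of the enzyme that starts heme synthesis. They were taken by name from the 35486 genes of a hippocampal count table, and all 5 were in it. The table held 47 libraries, 1 from each male C57BL/6J mouse. The groups were Young Veh (13 mice, vehicle), Young PF4 (12 mice, platelet factor 4), Old Veh (12 mice, vehicle) and Old PF4 (10 mice, platelet factor 4). Young mice were 3.75 to 5.26 months old, and old mice were 17.4 to 20.23 months old. PF4 and vehicle were injected into the peritoneum, and no group was left without injection. RNA came from frozen whole hippocampus, and whether these mice were perfused to wash blood from the vessels is not given in the sources used here.

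Adult hemoglobin is a tetramer of 2 alpha and 2 beta chains, each of which holds a heme group that binds oxygen. Developing red cells make very large amounts of globin mRNA, and young red cells in the circulation still carry some of it after they have lost the nucleus. Alas2 supplies heme to these cells, while Alas1 does so in other tissues. Globin transcripts have also been reported in some neurons and vessel cells, so a globin read does not by itself name the cell it came from. In bulk tissue, fewer cells of a type and less RNA per cell cannot be told apart.

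Both alpha genes lie on mouse chromosome 11 (GRCm38, plus strand), Hba-a1 at chr11:32283511-32284465 and Hba-a2 at chr11:32296489-32297298. Hbb-bt at chr7:103812524-103813996 and Hbb-bs at chr7:103826534-103828096 lie side by side on the minus strand of chromosome 7. Alas2 is at chrX:150547375-150570638 on the plus strand. Each globin gene has 3 exons, and the longest coding transcript of Alas2 has 11. The copies of each pair are nearly identical, which bears on how far their reads can be told apart. Over 426 coding bases, Hba-a1 and Hba-a2 differed at 1 base, C381T, and over 441 coding bases Hbb-bs and Hbb-bt differed at 1 base, C417T. Positions are counted from 1 at the start codon, the first gene of the pair gives the first letter, and both bases fall at codon position 3. The 31 bases around the difference are given for each gene from the GRCm38 annotation, 5′ to 3′ on the coding strand and all in exon 3, with the base that differs in capitals.
Hba-a1 (chr11:32284328-32284358): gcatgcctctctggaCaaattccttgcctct
Hba-a2 (chr11:32297145-32297175): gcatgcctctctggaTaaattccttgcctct
Hbb-bs (chr7:103826677-103826707): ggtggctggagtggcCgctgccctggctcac
Hbb-bt (chr7:103812668-103812698): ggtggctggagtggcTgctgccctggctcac
Of all stretches of 50 bases in the longest coding transcript, 32.5% of those of Hba-a1, 13.1% of those of Hba-a2, 34.2% of those of Hbb-bs and 41.7% of those of Hbb-bt occurred in no other transcript. The rest of each globin was shared with its own pair partner and with no other gene. How reads that match both copies were counted is not given in the sources used here, so the split of reads within a pair is uncertain. Alas2 had 86.2% such stretches, and the others were shared with Apex2 and Mir3620. Apex2, a DNA repair nuclease gene, runs on the opposite strand and covers 311 of the 2403 exon bases of Alas2. The libraries do not keep strand, so reads in that overlap cannot be assigned to either gene.

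The bases before the start site are shown for 1 gene of each kind, because the globins varied together between libraries. The sequences are from RefSeq (GRCm38.p6), which gave a promoter for each of the 5 genes, and its start sites differ from those of the annotation above. Each shows the 150 bases before the start, 5′ to 3′ on the coding strand. Capitals mark 4 boxes known from globin and erythroid promoters, on either strand. They are the CCAAT box, the CACCC box, the TATA box searched as TATAA, and the GATA motif searched as GATAA.
Hba-a1 (chr11:32283522-32283671): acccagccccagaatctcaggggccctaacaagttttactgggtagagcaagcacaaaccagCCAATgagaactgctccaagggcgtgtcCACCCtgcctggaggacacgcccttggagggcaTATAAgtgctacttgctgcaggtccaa
Hbb-bs (chr7:103827929-103828078): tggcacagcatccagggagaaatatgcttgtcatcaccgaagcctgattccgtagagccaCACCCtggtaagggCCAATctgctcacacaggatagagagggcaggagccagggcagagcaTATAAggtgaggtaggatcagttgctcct
Alas2 (chrX:150547267-150547416): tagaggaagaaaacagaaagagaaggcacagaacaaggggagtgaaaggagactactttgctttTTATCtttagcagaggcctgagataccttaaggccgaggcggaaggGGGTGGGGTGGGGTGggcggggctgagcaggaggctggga
The CCAAT box, the CACCC box and the TATAA box were all present in the window of each of the 4 globins, and 1.10% of 32851 mouse promoters of that length held all of them. Singly, CCAAT was in 24.5%, CACCC in 37.4%, TATAA in 14.2% and GATAA in 13.3% of those promoters. The windows of Hba-a1 and Hba-a2 were identical over 147 bases at an offset of 3 bases, and those of Hbb-bs and Hbb-bt were 71.1% identical. The Alas2 window held CACCC 3 times and GATAA once, all on the minus strand, and no match to the other boxes. A match is a run of letters and was not tested as a binding site.

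Globin reads were rare in these hippocampi. The 4 globins together had 1002 of 480445431 reads, or 2.09 CPM, the counts of a gene scaled to the same library total for all libraries. Library totals ran from 2242879 to 21112908 counts (median 10374007). Summed globin reads per library ran from 0 to 249, with a median of 12. Marker genes of hippocampal neurons were abundant in every library. Their 10 genes summed to between 7182 and 9369 CPM.

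Hbb-bs had the most reads of the globins, 474 in all. It ranged in Young Veh from 0.164 to 1.31 CPM (median 0.564, n = 13) and in Young PF4 from 0 to 7.30 CPM (median 0.381, n = 12). In Old Veh it ranged from 0.364 to 4.38 CPM (median 0.755, n = 12), and in Old PF4 from 0.0822 to 3.92 CPM (median 0.767, n = 10). The groups overlapped throughout, and in each of the last 3 the highest value came from a single library far above that group's median.

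Hba-a1 had 191 reads. It ranged from 0 to 0.656 CPM in Young Veh (median 0.164), from 0 to 2.71 CPM in Young PF4 (median 0.170), from 0 to 2.73 CPM in Old Veh (median 0.445) and from 0 to 1.61 CPM in Old PF4 (median 0.182). No read was counted in 13 of the 47 libraries, 1 of them Old Veh. Hba-a2, with 185 reads, had medians of 0.154, 0.0545, 0.309 and 0.306 CPM in Young Veh, Young PF4, Old Veh and Old PF4. Its highest libraries in those groups reached 0.451, 2.97, 1.91 and 1.41 CPM, and 12 libraries had none. Hbb-bt, the second beta gene, had 152 reads and was without a read in 15 libraries. Its group medians lay between 0.164 and 0.181 CPM, and its highest library in each group reached 0.892, 3.10, 2.73 and 1.41 CPM.

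Alas2 behaved unlike the globins. It had 1097 reads and at least 1 read in every library. It ranged from 1.29 to 4.01 CPM in Young Veh (median 2.23), from 0.377 to 2.89 CPM in Young PF4 (median 1.78), from 1.09 to 3.83 CPM in Old Veh (median 2.47) and from 1.52 to 4.09 CPM in Old PF4 (median 2.58). The 4 groups overlapped, and the highest of all 47 values was 4.09 CPM. Per kilobase of transcript, pooled over all libraries, Hbb-bs was at 1.57 CPM, Alas2 at 1.12, Hba-a2 at 0.695, Hba-a1 at 0.569 and Hbb-bt at 0.450. Within a pair, this order rests on the uncertain split of shared reads.

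**Figure D1:**
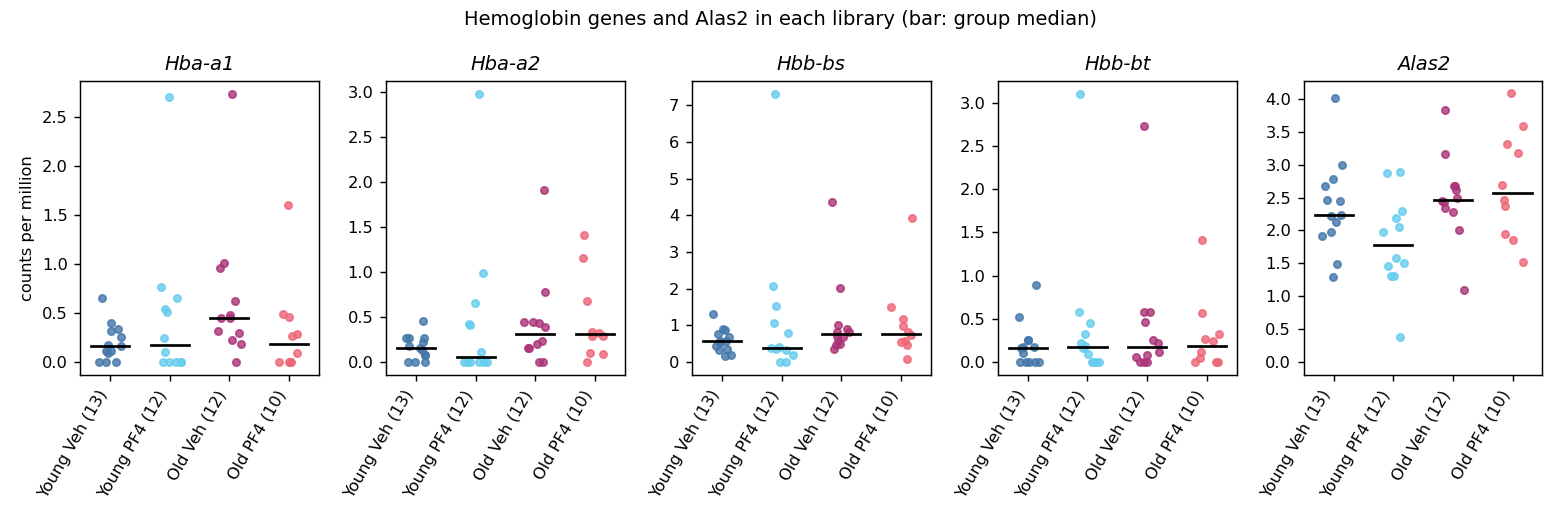
CPM of the 5 genes (a panel each, with its own vertical scale) in each of the 47 libraries, by group, with the number of mice in parentheses. Points are libraries and bars are group medians. In the globin panels the highest points of Young PF4, Old Veh and Old PF4 are replicates 3, 8 and 2 of those groups, though for Hba-a2 in Old PF4 replicate 11 (1.16 CPM) lies close to replicate 2 (1.41 CPM), while Alas2 spreads from 0.377 to 4.09 CPM.

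The high globin values came from the same 3 libraries. Young PF4 replicate 3 had 42 reads of Hba-a1, 46 of Hba-a2, 113 of Hbb-bs and 48 of Hbb-bt, which is 16.1 CPM for the 4 together. Old Veh replicate 8 had 10, 7, 16 and 10 reads of these genes (11.8 CPM), and Old PF4 replicate 2 had 16, 14, 39 and 14 (8.34 CPM). The next library, Young PF4 replicate 9, had 4.05 CPM, and 17 libraries were under 1 CPM. These 3 libraries held 37.4% of all globin reads and 6.05% of all reads. Young PF4 replicate 8 had no globin read among 2655463 counts, which allows up to 1.13 CPM (3 counts, counting error only).

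Alas2 was not high in all of these libraries. It was at 2.20 CPM in Young PF4 replicate 3, inside the range of the other young mice, and at 3.83 and 3.32 CPM in Old Veh replicate 8 and Old PF4 replicate 2. Of the 3 libraries, Old Veh replicate 8 was the only one with the highest Alas2 value of its group.

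The interval of the share of alpha chains among globin reads in each high library overlapped that of the other 44 libraries pooled. The share was 35.3% in Young PF4 replicate 3 (95% Wilson interval 29.7 to 41.5), 39.5% in Old Veh replicate 8 (26.4 to 54.4), 36.1% in Old PF4 replicate 2 (26.6 to 46.9) and 38.4% in the other 44 libraries pooled (34.7 to 42.3). The highest share of a group was 40.7% in Old Veh (34.4 to 47.4). Single libraries with few globin reads spread wider. Young Veh replicate 9 had 76.9% of 13 reads (49.7 to 91.8), above the intervals of Young PF4 replicate 3 and Old PF4 replicate 2. Old PF4 replicate 7 had 9.09% of 11 reads (1.62 to 37.7). Hbb-bs gave 75.7% of all beta reads (72.2 to 78.9), and 70.2% in Young PF4 replicate 3 (62.7 to 76.7). Hba-a1 gave 50.8% of alpha reads (45.8 to 55.8). The intervals cover counting error only, and reads amplified by PCR without molecular identifiers are not independent molecules.

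The globins varied between mice of the same group by more than counting error would give, and least in Young Veh. The chi-square of their counts within groups, divided by its degrees of freedom, was 30.9 for the 4 globins summed and 13.4 for Hbb-bs, where counting error alone gives about 1. Without the 3 high libraries these values fell to 5.21 and 2.85. By group they were 3.32 and 1.81 in Young Veh, 77.1 and 34.6 in Young PF4, 18.3 and 5.81 in Old Veh, and 26.8 and 12.0 in Old PF4. Single globins lay between 1.24 and 2.33 in Young Veh, where Alas2 had 1.78. Over all groups the value for Alas2 was 1.73, near the median of 1.80 for 3545 genes with read totals of the same order. The biological coefficient of variation fitted by edgeR without a filter was 0.781 for Hbb-bs, 0.975 for Hba-a1, 0.964 for Hba-a2, 1.20 for Hbb-bt and 0.173 for Alas2.

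The globins varied together between mice. With group means removed, Hba-a1 and Hbb-bs, which share no sequence of 50 bases, correlated in log2 CPM with an r of 0.73 and a rho of 0.58 (n = 47, permutation p = 1e-05 for r, the smallest that 100000 resamples can give, and 4e-05 for rho; adjusted over 10 pairs 2e-05 and 0.0004). Without the 2 libraries farthest from the median of Hba-a1, r was 0.61, and without the 3 high globin libraries it was 0.53. Hba-a2 and Hbb-bs gave r = 0.72 and rho = 0.55 (n = 47, permutation p = 1e-05 and 0.00014, adjusted 2e-05 and 0.000467). There r was 0.58 without the 2 farthest libraries and 0.51 without the 3 high ones. The 6 pairs of globins had r between 0.56 and 0.73, and each had an adjusted permutation p of at most 0.0001 for r. The lowest of them, Hba-a2 and Hbb-bt, fell to 0.22 without the 3 high libraries (adjusted permutation p = 0.174), which no longer passed, and was -0.16 within Young Veh. The values within groups ranged widely. Hba-a1 and Hbb-bs had r = 0.23 in Young Veh, 0.89 in Young PF4, 0.71 in Old Veh and 0.69 in Old PF4. Hba-a2 and Hbb-bs had r = -0.20 in Young Veh and between 0.73 and 0.87 in the other groups. No high library lay in Young Veh, and the differences between groups were not tested. The pairs within alpha and within beta share sequence, and the part that shared reads have in their correlation was not tested.

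Alas2 followed the globins less closely. Its r with group means removed was 0.42 for Hbb-bs (rho = 0.32, n = 47, permutation p = 0.00443 and 0.0281, adjusted 0.00633 and 0.0401), with 0.38 without the 2 farthest libraries. Within groups it was -0.02 in Young Veh, 0.51 in Young PF4, 0.54 in Old Veh and 0.41 in Old PF4. Without the 8 libraries of lowest depth the relation fell to r = 0.20 (adjusted p = 0.26, permutation test), and it then no longer passed. With Hba-a2, r was 0.19 (rho = 0.04, permutation p = 0.194 and 0.791, the same after adjustment). With its antisense neighbour Apex2, Alas2 had r = 0.27 (rho = 0.30, permutation p = 0.0632 and 0.0417, not in the family of 10 pairs), and 0.78 within Young Veh but between -0.02 and 0.19 in the other groups.

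**Figure D2:**
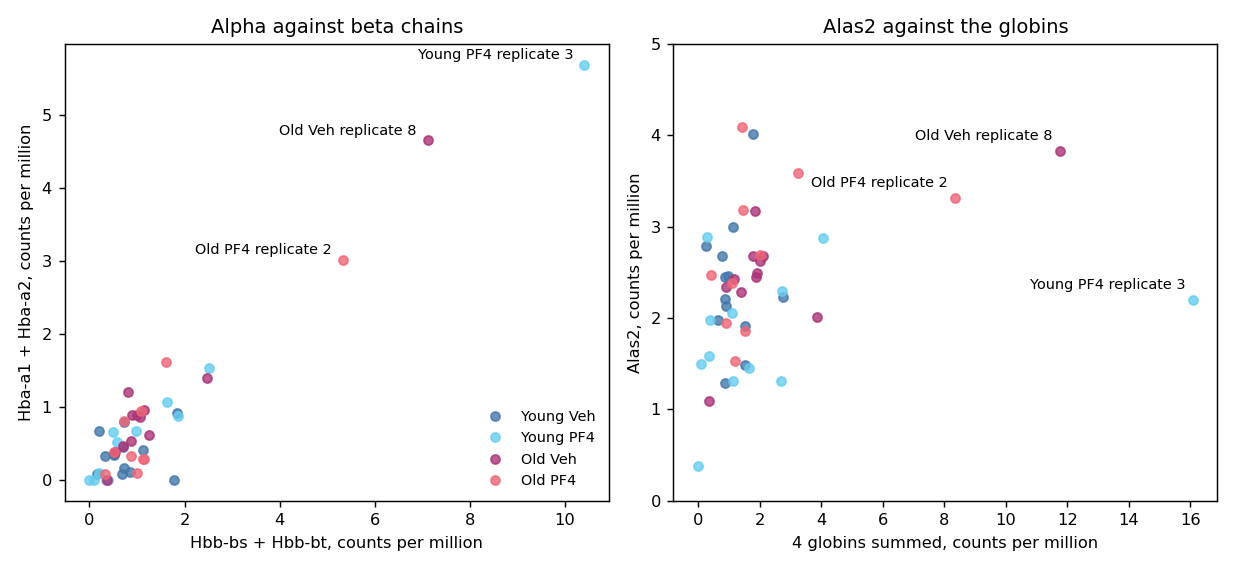
Left, summed CPM of the alpha genes (vertical) against the beta genes (horizontal) in each library. Right, Alas2 (vertical) against the 4 globins summed (horizontal), coloured by group. At left the 3 named libraries have the highest alpha and beta values, and no line was fitted. At right Young PF4 replicate 3, at 16.1 CPM of globin, has 2.20 CPM of Alas2.

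Whether the globins follow age or treatment was asked with edgeR's quasi-likelihood test on the counts in a single fit of the 4 groups. Hbb-bs and Alas2 passed its filter on low counts, with 17776 other genes. Hba-a1, Hba-a2 and Hbb-bt did not pass and were tested in a fit of all 27514 genes with a read. Calls were made below 0.05 after Benjamini-Hochberg adjustment.

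Between Old Veh and Young Veh, 0 of the 5 genes were called, where 2.77% of filtered genes (2.16% higher and 0.607% lower in Old Veh) and 1.45% of unfiltered genes were. Of the 5, Hba-a1 had an unadjusted p under 0.05, where 15.2% of filtered and 12.8% of unfiltered genes did. All 5 estimates were above 0. Hba-a1 had the lowest p, with a log2 fold change of 1.31 ± 0.62 (SE, edgeR p = 0.0394, adjusted p = 0.363), from a mean of 0.201 ± 0.191 CPM (SD, n = 13) in Young Veh to 0.642 ± 0.722 CPM (SD, n = 12) in Old Veh. It was above every Young Veh library in 3 of 12 Old Veh libraries. A two-sided permutation test of its log2 CPM gave p = 0.0121, or 0.181 adjusted over the 15 such tests made. Hbb-bs had a log2 fold change of 0.79 ± 0.54 (SE, adjusted p = 0.504, edgeR), Hba-a2 one of 1.08 ± 0.65 (adjusted p = 0.490, edgeR) and Hbb-bt one of 1.07 ± 0.76 (adjusted p = 0.561, edgeR). Alas2 had 0.16 ± 0.16 (SE, adjusted p = 0.697, edgeR), with an approximate 95% interval of -0.16 to 0.48. Fits that leave out a library were made on the filtered genes with Hba-a1, Hba-a2 and Hbb-bt kept in, where all 47 libraries gave 1.21, 1.02 and 0.98 for these genes. Without Old Veh replicate 8 the estimates in that fit were 0.89 for Hba-a1, 0.75 for Hba-a2 and 0.40 for Hbb-bt, and that for Hbb-bs was 0.52. Over the main fit and all alternatives, Hba-a1 ran from 0.77 to 1.55 and Hba-a2 from 0.59 to 1.30. Hbb-bt ran from 0.34 to 1.41 and Hbb-bs from 0.52 to 0.97. The library number is the Hi number of each sample title, and the titles do not say whether it is an order of processing. Old and young libraries do not overlap in it, so age and library number cannot be told apart. The same holds for PF4 in old mice, since Old Veh libraries were numbered 1 to 12 and Old PF4 libraries 13 to 23, while the numbers of the young groups overlapped.

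Between Young PF4 and Young Veh, the globin estimates rested on 1 library. Hbb-bs had a log2 fold change of 1.33 ± 0.49 (SE, edgeR p = 0.00845, adjusted p = 1.00). Hba-a1 had 1.35 ± 0.58, Hba-a2 had 1.60 ± 0.59 and Hbb-bt had 1.70 ± 0.68, each with an adjusted p of 1 from edgeR. All 4 globins had an unadjusted edgeR p below 0.05, where 1.2% of filtered and 3.22% of unfiltered genes did, and 0 of the 5 genes were called, where 0% of genes were. DESeq2 also called 0 genes here, and 213 filtered genes had an unadjusted edgeR p under 0.05. On the filtered genes with the members kept in, Hba-a1 had 1.42 ± 0.58, Hba-a2 had 1.66 ± 0.59 and Hbb-bt had 1.83 ± 0.68 with all libraries. Without Young PF4 replicate 3 the estimates of that fit were 0.37 ± 0.45 for Hbb-bs, 0.54 ± 0.60 for Hba-a1, 0.60 ± 0.60 for Hba-a2 and 0.56 ± 0.71 for Hbb-bt. The permutation tests of log2 CPM, in which a high library weighs less, gave p between 0.493 and 0.829 for the globins. The median of Hbb-bs was lower in Young PF4 (0.381 CPM) than in Young Veh (0.564 CPM), against the direction of its fold change. Alas2 had a log2 fold change of -0.25 ± 0.17 (SE, adjusted p = 1.00, edgeR). Its difference of mean log2 CPM was -0.40 (permutation p = 0.06, or 0.267 adjusted over the 15 such tests made).

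Between Old PF4 and Old Veh, the globin estimates took both signs. Hbb-bs had a log2 fold change of 0.10 ± 0.54 (SE, adjusted p = 1.00, edgeR) and Hba-a1 one of -0.71 ± 0.65 (SE, adjusted p = 0.862, edgeR). Hba-a2 had 0.27 ± 0.63 and Hbb-bt had -0.16 ± 0.79, each with an adjusted p of 1 from edgeR. Alas2 had 0.06 ± 0.18 (adjusted p = 1.00, edgeR), with an approximate 95% interval of -0.28 to 0.41. None of the 5 was called, where 0.0337% of filtered (0.0112% higher and 0.0225% lower in Old PF4) and 0.0254% of unfiltered genes were. None had an unadjusted p under 0.05, where 6.2% of filtered and 6.73% of unfiltered genes did. The sign of Hbb-bs turned with the library left out, to -0.46 without Old PF4 replicate 2, and it was 0.37 without Old Veh replicate 8. With the members kept in, Hba-a1 was -1.47 and -0.32 without these libraries (-0.64 with all), Hba-a2 was -0.098 and 0.57, and Hbb-bt was -0.90 and 0.50. The approximate 95% interval of Hbb-bs ran from -0.95 to 1.15.

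The difference of the PF4 effects between old and young mice was -2.06 ± 0.87 on the log2 scale for Hba-a1 (SE, edgeR p = 0.0219, adjusted p = 0.878). For Hbb-bs it was -1.23 ± 0.73, for Hba-a2 -1.34 ± 0.87, for Hbb-bt -1.86 ± 1.03 and for Alas2 0.32 ± 0.24, each with an adjusted p of 1.00 from edgeR. No member was called, where 0% of filtered and 0.00363% of unfiltered genes were. DESeq2 called 0 genes. Hba-a1 had an unadjusted edgeR p under 0.05, as did 707 filtered genes (3.98%) and 5.15% of unfiltered genes. Without Young PF4 replicate 3, and with the members kept in, the difference for Hba-a1 was -1.18 (-2.06 with all libraries), that for Hba-a2 -0.31 (-1.38), that for Hbb-bt -0.64 (-1.91) and that for Hbb-bs -0.27. Without Old PF4 replicate 2 these were -2.88, -1.76, -2.73 and -1.79.

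Adding the reads of each pair before the fit, which removes the uncertain split, gave 0 calls for either pair in the 4 comparisons. For Old Veh against Young Veh the log2 fold change was 1.20 ± 0.58 for the alpha pair (SE, adjusted p = 0.314, edgeR) and 0.88 ± 0.55 for the beta pair (adjusted p = 0.459, edgeR). For Young PF4 against Young Veh it was 1.52 ± 0.54 and 1.42 ± 0.50, and for Old PF4 against Old Veh -0.20 ± 0.58 and 0.03 ± 0.54, each with an adjusted p of 1.00 from edgeR. Ordered by median, Hbb-bs ran from Young PF4 through Young Veh and Old Veh to Old PF4, and none of these neighbours differed in a test that passed the threshold. Young Veh and Old Veh each enter 3 of the 4 comparisons, so these are not independent of each other.

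**Figure D3:**
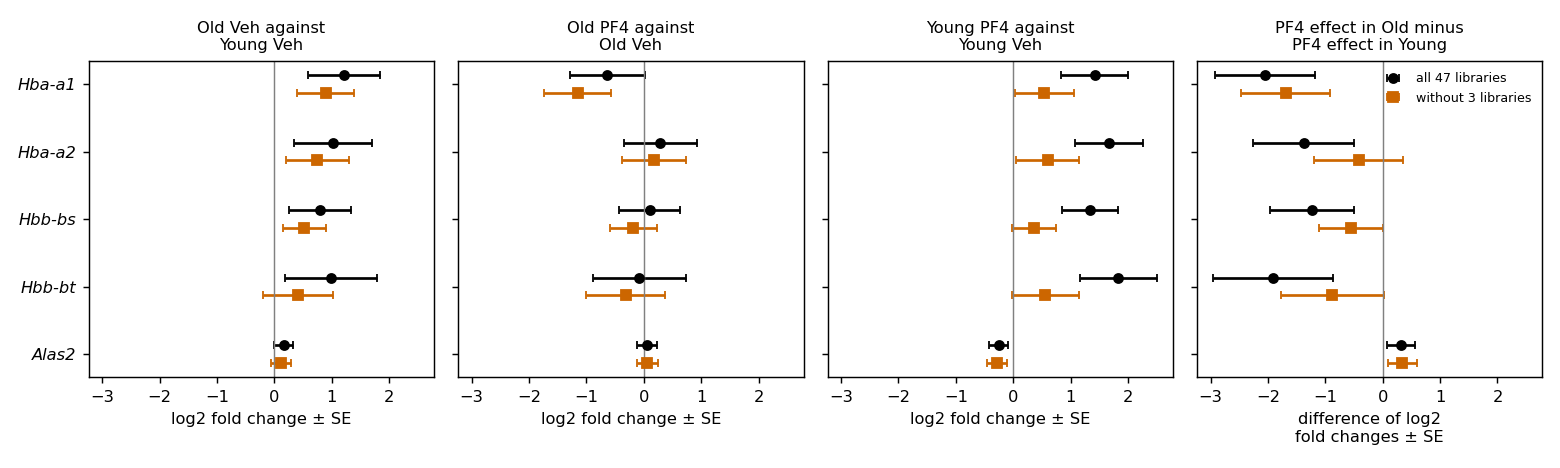
Log2 fold change (horizontal, with its standard error) of the 5 genes (vertical) in each comparison from edgeR, with all 47 libraries (black) and without the 3 libraries of highest globin level (orange). The right panel is the difference of the PF4 effects. Points for Hba-a1, Hba-a2 and Hbb-bt are from the filtered genes with these members kept in. In Young PF4 against Young Veh the globins lie between 1.33 and 1.83 with all libraries and between 0.36 and 0.60 without the 3.

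Genes known from red cells ranged from no reads to many. The anion exchanger gene Slc4a1 and the membrane protein gene Epb42 had 20 reads each in all 47 libraries, and the Rh-associated gene Rhag had 1. Of the erythroid transcription factors, Gata1 had 0 reads, Nfe2 had 6, Klf1 had 44 and Tal1 had 241. In Young PF4 replicate 3, Slc4a1 had 1 read and Epb42 and Rhag had 0, beside its 249 globin reads. Other genes of the same list went both ways there. Tspan33 (748 reads) and Tent5c (112 reads) had their highest counts of all 47 libraries in it, a library of 15481546 counts where the median was 10374007. Scaled for depth, Tent5c was at 7.23 CPM against 3.81 CPM in the rest of its group pooled, and Tspan33 at 48.3 against 38.9 CPM. Slc25a37 (15.1 against 17.4 CPM), Icam4 (1.36 against 1.49 CPM) and Tal1 (0.258 against 0.626 CPM) were lower than in the rest of the group, and Bpgm was at 48.6 against 46.1 CPM. The summed list was the second highest of its group in that library (124.0 CPM in a range of 98.6 to 127.4) and the highest of its group in Old PF4 replicate 2 (127.1 CPM), and was at 111.3 CPM in Old Veh replicate 8, near that group's median of 111.5. Of 19 listed erythroid membrane, chaperone and transcription factor genes in the table, 11 had fewer than 50 reads, and the 6 that passed the filter were Tspan33, Bpgm, Slc25a37, Gypc, Icam4 and Tent5c, with 746 to 23449 reads each. None of the 6 was called in any comparison, where 2.77% (age), 0.0337% (PF4 in old mice), 0% (PF4 in young mice) and 0% (difference of PF4 effects) of all genes were, so the count says nothing about the list. Their median log2 fold change was -0.04 for Old Veh against Young Veh, beside -0.01 over all genes tested.

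The embryonic globins were at or near 0. Hba-x, Hbb-bh1 and Hbb-bh2 had 0 reads and Hbb-y had 2. The theta globin copies Hbq1a and Hbq1b had 69 and 60 reads, with 1, 0 and 2 reads of Hbq1a and 1, 0 and 0 reads of Hbq1b in Young PF4 replicate 3, Old Veh replicate 8 and Old PF4 replicate 2. Globins that nerve cells and other cells make were also counted. Ngb, the neuroglobin gene, had 2295 reads and Cygb, the cytoglobin gene, had 24105, while Mb, the myoglobin gene, had 125. Of the other enzymes of heme synthesis, Fech, which inserts the iron, had 56155 reads and Alas1, the form used outside red cells, had 35996. None of the 8 genes on this list was called in any of the 4 comparisons, at the same shares of all genes, and their median log2 fold change with age was 0.02. Of the 8 genes that clear hemoglobin and heme, 6 passed the filter and 0 were called, where 2.77% of all genes were with age, 0.0337% with PF4 in old mice and 0% with PF4 in young mice. A count of 0 in so few genes is no result about the list. The scavenger receptor gene Cd163 (618 reads) had a log2 fold change of -0.68 ± 0.27 for Old Veh against Young Veh (SE, edgeR p = 0.0154, adjusted p = 0.187). Of the 6 it was the only 1 with an unadjusted p under 0.05, where 15.2% of filtered genes were. The median of the 6 was -0.00018.

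**Figure D4:**
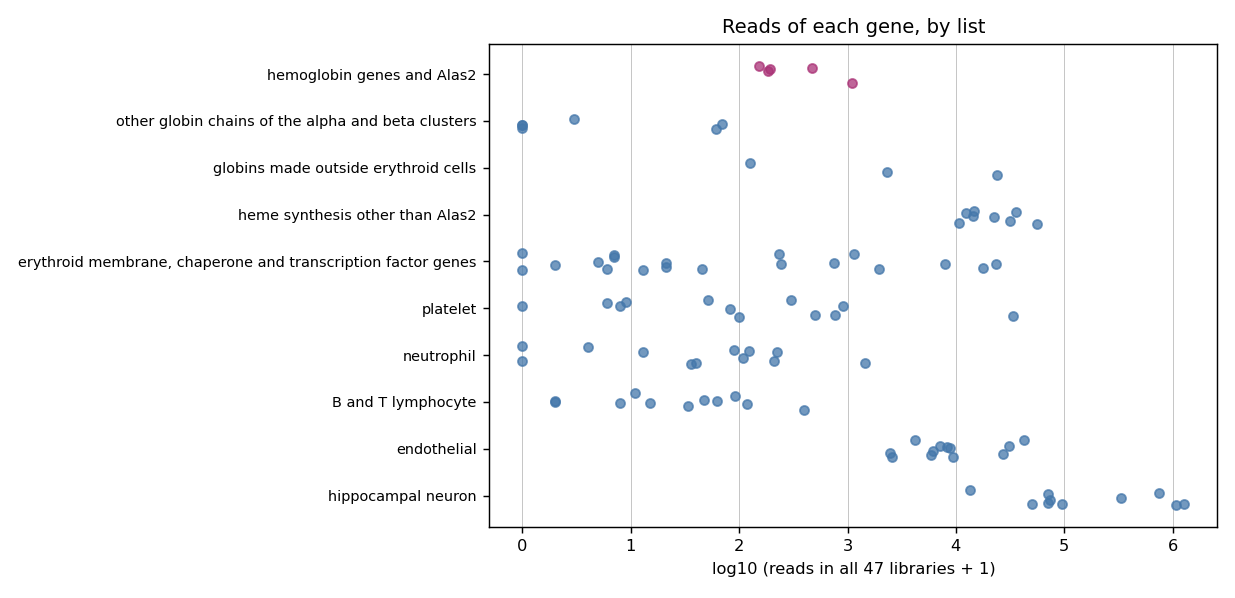
Reads of each gene summed over the 47 libraries, as log10 of the reads plus 1 (horizontal), by gene list (vertical), with 1 point per gene. The hemoglobin genes and Alas2 (red) had between 152 and 1097 reads, while 11 of 19 erythroid, 4 of 12 platelet, 6 of 12 neutrophil and 7 of 11 lymphocyte genes were below 50 reads and the heme synthesis genes Alas1 and Fech had 35996 and 56155.

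Marker lists of other blood cells held both genes near 0 and genes with more reads than single globins. Of 12 platelet genes, 4 had fewer than 50 reads (Ppbp, Tubb1, Treml1 and Gp6, with 7, 8, 5 and 0), while Pf4 itself had 303, Itgb3 504, Itga2b 765 and Gp5 911. Of 12 neutrophil genes, 6 had fewer than 50 reads, with Ly6g and Cxcr2 at 0, while Ngp had 210, S100a8 222 and Csf3r 1458. Of 11 lymphocyte genes, 7 had fewer than 50 reads, with Ms4a1 at 1, while Trac had 394. The 12 neutrophil genes summed to 4.59 CPM in Young PF4 replicate 3, where its group ran from 2.02 to 5.22, to 3.01 CPM in Old Veh replicate 8 (2.55 to 7.86) and to 6.03 CPM in Old PF4 replicate 2 (4.04 to 12.4). These were the third, the eleventh and the fourth highest of their groups. The 11 lymphocyte genes in the table summed to 1.61, 0.820 and 1.81 CPM in these libraries, the sixth, the ninth and the fifth highest. Vessel markers were on the high side of their groups in the old libraries. The 12 endothelial genes summed to 350 CPM in Young PF4 replicate 3, the seventh highest of its group, to 340 CPM in Old Veh replicate 8, the third highest, and to 339 CPM in Old PF4 replicate 2, the second highest. The 12 pericyte and smooth muscle genes summed to 198 CPM (the sixth highest), 211 CPM (the third) and 194 CPM (the second). Kdr, a receptor gene of endothelial cells, was above the rest of its group pooled in all 3 libraries, at 26.8 against 17.0 CPM, 21.3 against 15.3 CPM and 34.1 against 16.8 CPM, as were Cdh5, Flt1, Pecam1 and Tie1. Itm2a was below the rest of its group in all 3 libraries, at 85.2 against 90.5 CPM, 77.9 against 82.6 CPM and 59.7 against 83.9 CPM, and the other 6 endothelial genes went both ways. These genes were picked after their values were seen, and the part of vessel content in the globin values was not tested. Young PF4 replicate 3 had the highest sum of its group for the 12 platelet genes, 90.6 CPM, of which Gp1bb alone was 83.1 CPM. In that library 8 of the 12 were above the rest of the group pooled, among them Gp5 (3.04 against 1.72 CPM), Itgb3 (1.29 against 0.945 CPM) and Clec1b (0.388 against 0.050 CPM, or 6 reads), while Pf4 (0.452 against 0.706 CPM) and Gp1ba were below it and the other 2 had no read in the group. Old Veh replicate 8 was the ninth highest of its group for these genes (70.8 CPM) and Old PF4 replicate 2 the third (74.8 CPM). Young PF4 replicate 3 also had the highest sum of its group for the 10 choroid plexus genes, a tissue beside the hippocampus, at 3463 CPM in a range of 94.6 to 3463. Old Veh replicate 8 and Old PF4 replicate 2 had 1006 and 1793 CPM of choroid plexus genes, the fourth and the third highest of their groups, where the medians were 47.2 and 66.1 CPM. In the fit of the globin index described below, the 10 choroid plexus genes had slopes of 0.045 to 0.17, with Ttr at 0.11 ± 0.26 (SE, edgeR p = 0.682, adjusted p = 1.00).

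Which other transcripts follow the globins within groups was asked with a globin index, the log2 CPM of the 4 globins summed, added to the edgeR fit of the groups. Of 17776 genes tested, 0 (0%) were called, 532 (2.99%) had an unadjusted p under 0.05, and DESeq2 called 0. The 15 genes with the smallest p had an adjusted p of 1.00 each from edgeR. They were Pglyrp1, Phf7, Muc15, Sos2, Gm42989, Gm48855, Creb3l1, Pcid2, Frmpd2, 2810001G20Rik, Stk26, Adss, Gm5415, Gm42853 and Gm16243. Pglyrp1, which encodes a peptidoglycan recognition protein, had the smallest p, with a slope of 0.18 ± 0.046 log2 units per log2 unit of globin (SE, p = 0.000227), and 0.088 without the 3 high libraries. The 10 genes most like the index in group-centred log2 CPM over 47 libraries were Muc15 (r = 0.56), Gm5415, 2810001G20Rik, Phf7, Snhg20, Mocs1, 1700109H08Rik, Commd5, Hist1h1e and Bcdin3d (r = 0.47). No gene of the marker lists was called for the index. Of the 12 endothelial genes, 4 had an unadjusted p under 0.05, with slopes of 0.0085 to 0.12 over the list and a median of 0.026, beside 0.0016 over all genes tested.

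Without the filter on low counts, 8 of 27509 genes (0.0291%) were called for the index, 6 (0.0218%) higher and 2 (0.00727%) lower with more globin, each with at most 155 reads in all. These 8 were looked at after their values were seen. Crx, a transcription factor gene of photoreceptors and the pineal gland, had 29 reads, of which 18 were in Old Veh replicate 8. Rbp3, which encodes a retinoid-binding protein of the same cells, had 155 reads, 71 of them in that library and 28 in Old PF4 replicate 11. Tph1, the pineal form of tryptophan hydroxylase, was added for this reason and had 220 reads, of which 53 were in Old Veh replicate 8. Mpig6b, a platelet receptor gene, had 17 reads, 5 of them in Young PF4 replicate 3. The others were Gm4792, Gm42676, Gm11520, 1700039M10Rik and Gm13012, with 9 to 24 reads each.

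Adding the globin index to the group fit changed the count of the age comparison by less than 1.5 times. With the index, 436 genes were called between Old Veh and Young Veh, against 492 without it, and 401 were called in both. The median absolute shift of the log2 fold change was 0.013. Of the listed genes, 1 was called in any comparison. Rgs5, a pericyte gene, was higher in Old Veh than in Young Veh by 0.29 ± 0.066 on the log2 scale (SE, adjusted p = 0.00728, edgeR), among 12 pericyte and smooth muscle genes with a median of -0.14. For Old PF4 against Old Veh, 7 genes were called with the index and 6 without it, and those 6 were among the 7.

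Depth, library number and age in months showed no relation to Hbb-bs or Alas2 within groups that passed correction. Of 24 correlations, the lowest permutation p was 0.048, for Alas2 and log2 total count in Young Veh (r = -0.58, rho = -0.30, n = 13, adjusted p = 0.72 for r). Without the 2 farthest libraries, that r was -0.17, so it rested on them.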

How the data were processed

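The deposited values were whole-number counts of reads per gene, made by the authors from hippocampal RNA-seq (Smart-Seq2, Nextera XT, unstranded) and not normalized. The submitters' processing notes name Trim Galore 0.3.7, STAR 2.5.3a, DESeq2 and GRCm38. The authors left out libraries under a minimum of reads. Totals ran from 2242879 to 21112908 counts, so low genes carry large counting error. Replicates are numbered in the sample titles and were taken as separate mice, because the paper scored expression in each mouse. The members, lists and tests were chosen with earlier results of these data known.

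Counts were tested with edgeR 4.0.16 (R 4.3.3, quasi-likelihood, TMM, filterByExpr, Benjamini-Hochberg over all genes tested, called below 0.05) in 1 fit of 4 groups. SE is the absolute log2 change over the root of F, and intervals are 95% and approximate. Of the members, 2 of 5 passed the filter, and the other 3 come from a fit without it, a choice made after seeing the data. CPM (counts per library total, scaled) used all reads of the table. Levels for correlation were log2 CPM with a prior count of 2, also in the globin index, since 1 library had 0 globin reads. Permutation tests used 100000 resamples and were two-sided. The tests were checked on simulated data. DESeq2 1.42.0 and other filters, scalings and libraries were alternatives.

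The rule for named genes took the members, listed genes that were called, the 15 with the smallest p for the index and the 10 with the highest correlation with it. Other listed genes, and Crx, Rbp3, Tph1 and the genes beside them, are outside the rule and were named after their values were seen. Gene models were GENCODE and promoters RefSeq, both on GRCm38. Replicate numbers did not pair the mice. Some listed genes are not reported here.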

Additional observations from a re-analysis of the deposited data

Results flagged for a closer look

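Old PF4 was the only group small enough (10 mice) for the test of a single library standing apart, in which the gap to the nearest value is divided by the range of the group and compared with 0.466. Old PF4 replicate 2 stood apart for 4 of the 6 measures. It had 1.61 CPM of Hba-a1 (next library 0.485), 3.92 CPM of Hbb-bs (next 1.5), 1.41 CPM of Hbb-bt (next 0.564) and 8.34 CPM of the 4 globins summed (next 3.24). The ratios of gap to range were 0.699, 0.630, 0.599 and 0.644. Hba-a2 (1.41 CPM, next 1.16) and Alas2 did not stand apart. Chance gives such a library in about 1 in 20 groups where values are normally distributed. These were CPM near 0, with no Hba-a1 read in 4 of the 10 libraries, so that rate may not hold here. The measures share reads, so they are not independent of each other.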

How the results depend on the processing

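No member was called in any comparison under the alternatives run, and the lowest adjusted p was 0.180, for Hba-a1 in Old Veh against Young Veh with the replicate block. DESeq2 gave no adjusted p for the 4 globins in Old Veh against Young Veh. It gave none for any of the 5 members in Old PF4 against Old Veh, so it could not call them there. Over 198 values of members under alternatives other than leaving out 1 library, 193 kept their direction, and over 595 with 1 library left out, 584 did. All that turned were in Old PF4 against Old Veh. Alternatives for Hba-a1, Hba-a2 and Hbb-bt keep them among the filtered genes, where Hba-a2 was 0.29 and Hbb-bt -0.079 with all libraries. Hbb-bt was 0.44 without the 8 libraries of lowest total count and 0.031 with the copies added, Hba-a2 was -0.20 with the copies added, and Hbb-bs was -0.18 without the 3 libraries of highest globin level and -0.068 as a difference of mean log2 CPM. With 1 library left out, Hba-a1 ran from -1.47 to -0.32, Hbb-bs from -0.46 to 0.37, Alas2 from -0.020 to 0.13, Hba-a2 from -0.10 to 0.57 and Hbb-bt from -0.90 to 0.50. The cause was not tested.

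Genes called in Old PF4 against Old Veh numbered 24 with DESeq2, 0 with only the 2 groups, 10 with the replicate block, and 0 without the 8 shallow or the 3 high-globin libraries, against 6, and 0 (without Old Veh replicate 2) to 19 (without Old Veh replicate 11) with 1 library left out. Old Veh against Young Veh had 179 without the 8 shallow libraries, which also has fewer samples, and 353 to 579 with 1 left out. Without a filter the difference of PF4 effects had 1 and the globin index 8. The correlation of Alas2 with Hba-a1, Hbb-bs and Hbb-bt was 0.26, 0.20 and 0.22 without the 8 shallow libraries. Without the 3 high-globin libraries it was 0.25 with Hba-a1 and 0.30 with Hbb-bt, and that of Hba-a2 and Hbb-bt was 0.22. None of these 6 passed.

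The replicate block gave 453 calls with age. Replicate numbers were taken to name separate mice, and the 66 pairs of same-numbered mice had correlations of their deviations from -0.43 to 0.55 (median -0.0063), so they were not treated as pairs. Depth limits the globin values, with a median of 12 reads per library over all 4. The spread of their sum between libraries (chi-square per degree of freedom of 30.9) was above counting error. It rested largely on the 3 high-globin libraries, with 5.21 without them and 3.32 within Young Veh.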
